A study of Homo sapiens with 4 samples.

Results

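The heat shock proteins, the cytosolic chaperonin and the prefoldin complex are the genes described here, taken by symbol alone as the protein-coding rows whose names begin with HSPA, HSPB, HSPD, HSPE, HSPH, HSP90, DNAJ or PFDN, together with CCT2 to CCT8 and TCP1. The rule found 92 genes among 20269 protein-coding rows. They comprised 15 HSP70 and HSP110 genes, 3 HSP90 genes, 7 small heat shock proteins, 9 genes of the CCT chaperonin, the mitochondrial pair HSPD1 and HSPE1, 5 prefoldin subunits and 44 J-domain genes (16 of type A and B, 28 of type C). A further 7 genes met the rule by name only: HSPBP1, HSPBAP1 and HSPB11, which carry the HSPB prefix without being small heat shock proteins, the readthrough genes HSPE1-MOB4, DNAJC25-GNG10 and HSPB2-C11orf52, and the CCT-like gene CCT8L2. RNA had been sequenced from NUGC3, a human stomach cancer cell line, as 2 libraries of wild-type cells and 2 libraries of the same line with MYC knocked down. No other allele, treatment or time point is given, and how MYC was lowered, and whether in 1 clone or a pool, was left unstated in the labels.

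Chaperones bind unfolded protein chains and help them to fold. HSP70 proteins bind and release short stretches of a chain with ATP, J-domain proteins deliver clients to HSP70 and start its ATP cycle, and HSP110 proteins exchange the nucleotide. HSP90 acts late, on kinases and receptors among others, small heat shock proteins hold clients without ATP, prefoldin hands actin and tubulin chains to the CCT chaperonin, and HSP60 with its lid HSP10 folds proteins inside mitochondria. MYC is a transcription factor that binds the E-box and drives growth, and the heat shock response of these genes runs through the factor HSF1.

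Some of these genes were among the abundant messages of the line and others were silent. The deposited values fit FPKM, in which fragments are scaled to transcript length and to the library total; the unit was read from the values. The members summed to 10456 and 10313 FPKM in wild-type replicates 1 and 2, or 1.60% and 1.60% of all protein-coding FPKM. In MYC knockdown replicates 1 and 2 they summed to 8427 and 8175 FPKM, or 1.35% and 1.37%. Both knockdown sums lay below both wild-type sums, at 79.9% of the wild-type mean. Of the 92 genes, 70 reached at least 1 FPKM in at least 2 libraries and were tested, and 0 of these passed through 1 group alone. HSPA8, the constitutive cytosolic HSP70, ranked 99th by wild-type mean among the 12953 genes tested, HSP90AB1 ranked 107th and HSP90AA1 ranked 129th. In all, 20 members lay among the 500 most abundant genes. FPKM is relative to each library's total, so a lower amount of RNA per cell and a smaller share of it cannot be told apart, nor can fewer expressing cells and less RNA per cell.

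The 22 genes that were not tested were mostly silent family members. Listed at 0 in all 4 libraries were 7 genes, the small heat shock genes HSPB2, HSPB3 and HSPB7, HSPB2-C11orf52, CCT8L2, DNAJC12 and DNAJC5B. Values are given throughout as wild-type replicate 1, wild-type replicate 2, MYC knockdown replicate 1 and MYC knockdown replicate 2. HSPA6, a strictly heat-inducible HSP70, stood at 0.03, 0.02, 0 and 0.04 FPKM. The highest value in this set was 1.85 FPKM, for CCT6B, the testis form of the sixth chaperonin subunit, in MYC knockdown replicate 1. The others were DNAJB7, DNAJB8, DNAJB13, DNAJC5G, DNAJC22, DNAJC25-GNG10, DNAJC28, HSPA1L, HSPA2, HSPA12B, HSPB6, HSPB8 and HSPB9.

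MYC itself stood at 82.9, 82.0, 65.0 and 75.8 FPKM, lower in both knockdown libraries, with a log2 change of −0.23 that did not pass (limma adjusted p = 0.237). The wild-type libraries lay closer together than the knockdown libraries, with a median absolute log2 difference over all genes tested of 0.08 and 0.20. For the members tested those differences were 0.06 and 0.15. MYC knockdown replicate 1 stood apart in IFI6, an interferon-stimulated gene, which was at 11.1, 10.2, 375 and 11.6 FPKM. What set that library apart was not tested for a part in the chaperone values, and the main families are given below in both knockdown libraries. All 6 epithelial markers looked up were expressed (EPCAM, CDH1, KRT8, KRT18, KRT19 and CLDN4), summing to 5125 and 5181 FPKM in wild type and to 5422 and 5986 in the knockdown. Markers of white blood cells were all under 1 FPKM (5 of 5), as were 2 of 2 endothelial and 4 of 5 fibroblast markers, with fibroblast sums of 5.76 to 6.57 FPKM in wild type and 2.98 to 8.12 FPKM in the knockdown. The labels name no separate cultures behind the replicates. The p-values therefore reflect the spread between these libraries alone, which may be technical.

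The abundant folding machines were lower in the MYC knockdown libraries, while most J-domain helpers were not. All 8 expressed subunits of the CCT chaperonin, all 3 HSP90 genes, HSPD1, HSPE1 and HSPB1 were lower in each knockdown library than in either wild-type library, which is called lower without overlap here. On the log2(FPKM + 1) scale, where changes of low genes come out too small, the largest negative change was −0.82 for HSPB1 and the largest positive change was 0.80 for DNAJB2, a J-domain protein of neurons and muscle.

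The limma test, adjusted over all 12953 genes by Benjamini-Hochberg, called 0 members at 0.05, as it called 0% of all genes. The smallest adjusted p of the table was 0.0556, shared by 147 genes, and HSPB1 was among those. At an adjusted p under 0.10, 14 members were lower, or 20% of the 70 tested, against 4.91% of all genes tested, and 2 members were higher, or 2.86% against 5.5%. At an unadjusted p under 0.05 the counts were 22 lower, where 11.5% of all genes were, and 9 higher, where 14.4% were. Lower without overlap were 33 members, or 47.1%, against 25.2% of all genes. Higher without overlap were 19 members, or 27.1%, against 33.4%. With equal FPKM sums 25 members were lower and 25 higher without overlap, so lower members did not outnumber higher ones under that scaling. The shares of all genes without overlap were not counted under it. The median log2 change was −0.09 over the members tested and 0.04 over all genes tested. With libraries scaled to equal FPKM sums those medians were 0.0033 and 0.12, so the sign of the members' median changed with that scaling. With no filter on low values 0 members passed 0.10 in either direction. The counts at 0.10 also moved with the library left out: 35 lower without MYC knockdown replicate 1, 25 without MYC knockdown replicate 2, and 0 without wild-type replicate 1 or without wild-type replicate 2, where the spread rests on the knockdown pair alone and the lone library is assumed to vary like the other group.

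Level and direction went together among the members, and in part among all genes. A split at a mean of 50 FPKM was chosen after the values were seen. At or above it, 27 of 33 members were lower without overlap and 3 higher, where 40.9% and 26.8% of all genes of that level were. Below it, 6 of 37 members tested were lower and 16 higher, where 22.3% and 34.6% of all genes of that level were. At an adjusted p under 0.10, 14 of the 33 were lower and 0 higher, where 12.6% and 6.35% of all genes of that level were. Of the 37 below, 0 were lower and 2 higher, where 3.47% and 5.35% were. The medians were −0.30 and 0.16 for the members and −0.06 and 0.06 for all genes.

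**Figure D1:**
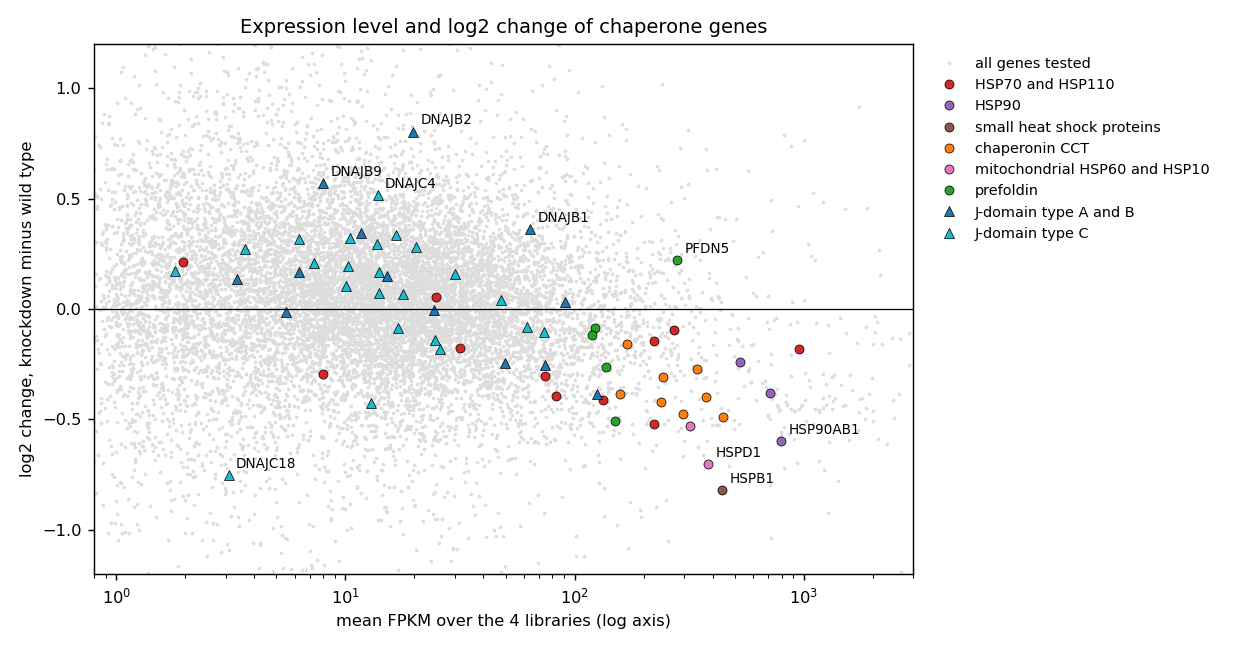
Mean FPKM over the 4 libraries (log axis) against the log2 change, knockdown minus wild type. Tested members are marked by family (circles, and triangles for J-domain genes). All genes tested are in grey, of which 257 lie outside the axes. HSPBP1, HSPBAP1, HSPB11 and HSPE1-MOB4 were tested but are shown in grey alone. Members above 50 FPKM lie mostly below 0, with HSPB1 at −0.82, and J-domain genes lie on both sides, with DNAJB2 at 0.80.

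**Figure D2:**
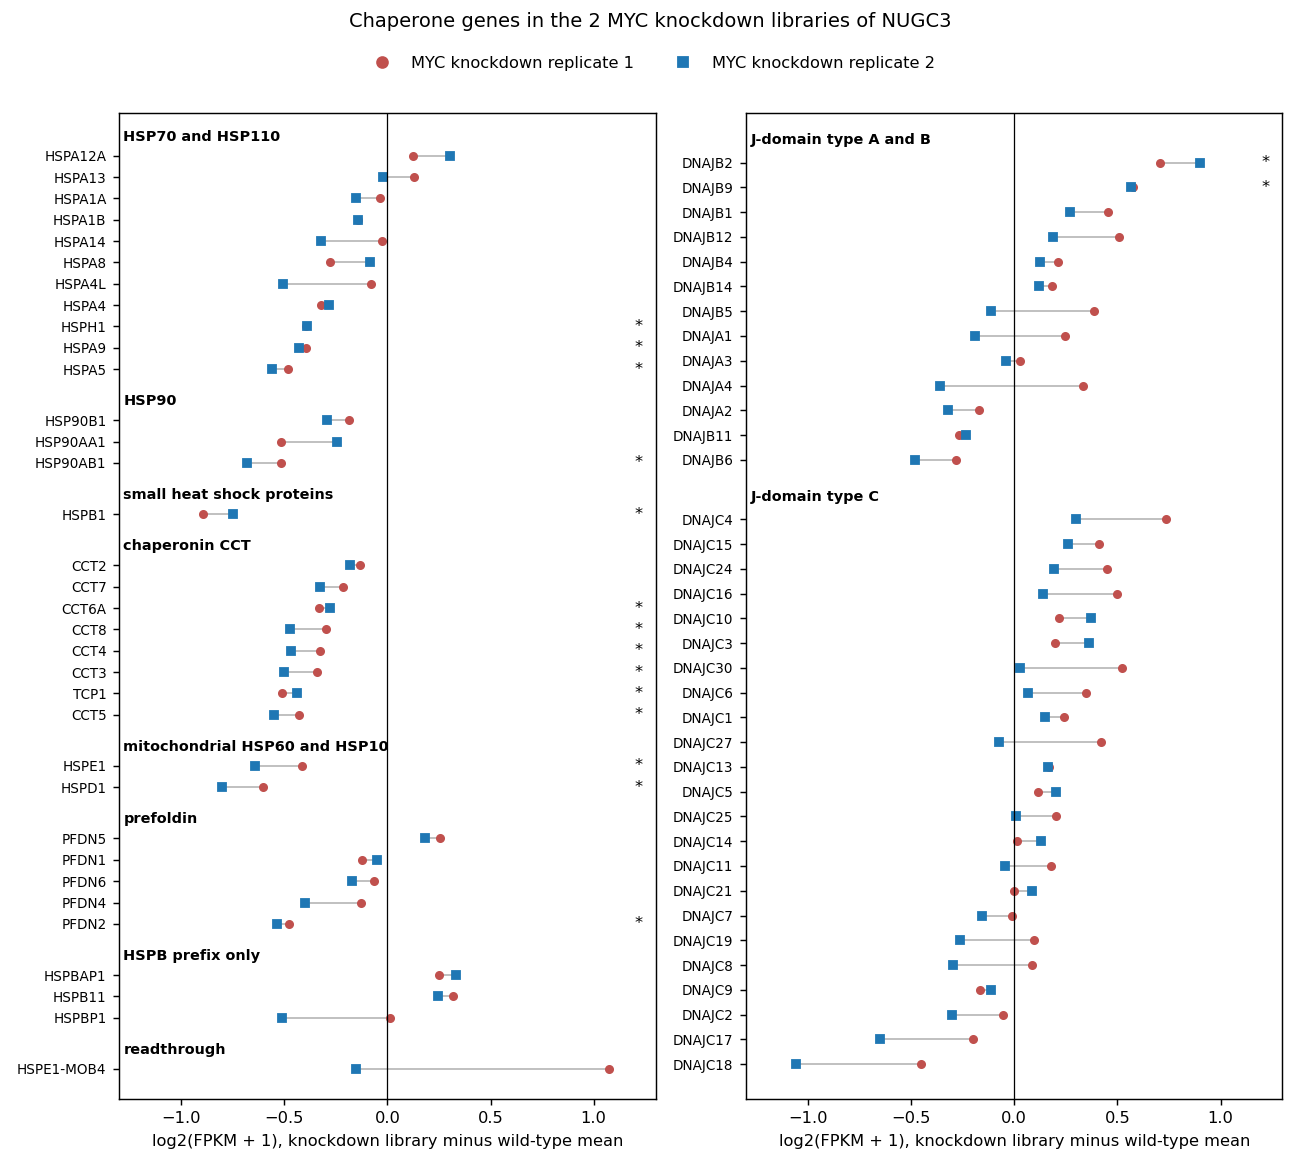
Each of the 70 tested members in MYC knockdown replicate 1 (circle) and replicate 2 (square) as the log2(FPKM + 1) difference from the wild-type mean, by family, with an asterisk for an adjusted p under 0.10 (limma). The asterisks stand beside 14 genes left of 0 and beside DNAJB2 and DNAJB9 right of 0.

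Promoter stretches are printed here because MYC and HSF1 have well-known binding letters, and because a start of HSPD1 and that of HSPE1 lie head to head. In the RefSeq promoter table (GRCh38.p14; 250 bases before to 50 after each start) 81 of the 92 members matched, some with several starts. The E-box CACGTG stood in 9 of 88 windows of tested members, or 10.2%, against 8.34% of 22198 windows of protein-coding genes. The same E-box was counted in windows of HSPD1, HSPE1 and HSPE1-MOB4. The windows of HSPE1 and HSPE1-MOB4 are identical, so the 9 windows hold fewer separate sites. The heat shock units searched, GAANNTTC and TTCNNGAA, which may overlap each other, stood in 22 of the 88 windows, or 25%, against 11.6%. All 3 sets of letters read the same on both strands. A match is only a match of letters and shows no binding.

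A start of HSPD1 (minus strand) and the start of HSPE1 (plus strand) lie 105 bases apart on chromosome 2. The interval between them holds a single E-box that falls in the windows of both starts, 22 bases before the start of HSPE1. This HSPD1 start was taken for its E-box, and the window of another listed HSPD1 start (chr2:197499791-197500090) holds 0. The interval is shown at chr2:197500275-197500378, in the direction of HSPE1, with the E-box in capitals. HSPA9, the mitochondrial HSP70, has an E-box close to its start (chr5:138575402-138575461, minus strand). DNAJB9, an ER J-domain protein, has a pair of E-boxes (chr7:108569784-108569843, plus strand).
HSPD1 and HSPE1: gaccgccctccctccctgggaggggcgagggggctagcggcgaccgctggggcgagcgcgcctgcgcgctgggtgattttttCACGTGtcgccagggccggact
HSPA9: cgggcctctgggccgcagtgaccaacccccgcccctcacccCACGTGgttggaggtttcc
DNAJB9: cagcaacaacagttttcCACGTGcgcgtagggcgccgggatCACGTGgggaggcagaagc

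The genes behind these E-boxes did not share a direction: HSPD1, HSPE1 and HSPA9 were lower and DNAJB9 was higher, all at an adjusted p under 0.10. Of the 12 lower members with a promoter in the table, 3 had an E-box, and of the 2 higher members 1 had. The windows of the tested CCT subunits held 0 E-boxes in 9, and CCT6A had no window to search.

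Heat shock units stood in a window of 14 of the 31 matched members that were lower without overlap, of 3 of the 16 that were higher and of 3 of the 17 that overlapped. At an adjusted p under 0.10, 6 of 12 lower members and 0 of 2 higher members had one. The difference between these counts was not tested. They are shown in capitals for HSPB1 (chr7:76302468-76302517, plus strand), the downstream start of HSP90AB1 (chr6:44247768-44247847, plus strand), HSP90AA1 (chr14:102087095-102087144, minus strand), HSPA8 (chr11:123062162-123062211, minus strand), HSPA1A (chr6:31815418-31815467, plus strand), HSPA1B (chr6:31827614-31827663, plus strand) and DNAJB1 (chr19:14518428-14518487, minus strand).
HSPB1: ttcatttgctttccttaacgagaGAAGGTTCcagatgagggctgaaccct
HSP90AB1: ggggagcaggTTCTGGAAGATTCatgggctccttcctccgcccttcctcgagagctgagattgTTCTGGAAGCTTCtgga
HSP90AA1: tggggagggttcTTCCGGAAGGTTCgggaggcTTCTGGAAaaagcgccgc
HSPA8: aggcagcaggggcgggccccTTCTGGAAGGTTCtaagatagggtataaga
HSPA1A: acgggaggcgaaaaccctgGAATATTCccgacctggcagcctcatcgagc
HSPA1B: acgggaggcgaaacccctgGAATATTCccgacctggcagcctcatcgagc
DNAJB1: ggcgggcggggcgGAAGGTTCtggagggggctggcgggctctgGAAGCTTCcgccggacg

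Among these 7 genes, HSPB1 and HSP90AB1 were lower at an adjusted p under 0.10, HSP90AA1, HSPA8, HSPA1A and HSPA1B had negative changes that did not pass, and DNAJB1 had a positive one that did not. The printed stretches of HSPA1A and HSPA1B share 49 of 50 bases.

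Most tested HSP70 and HSP110 genes were lower in the knockdown libraries. Their median log2 change was −0.18 over 11 genes, at −0.14 in MYC knockdown replicate 1 and −0.28 in replicate 2. Of the 11, 8 were lower without overlap and 1 was higher, or 72.7% and 9.09% against 25.2% and 33.4% of all genes tested. At an adjusted p under 0.10, 3 were lower, or 27.3% against 4.91%. Most of the 11 averaged at least 50 FPKM, where 40.9% of all genes were lower and 26.8% higher without overlap. At that level 12.6% of all genes were lower at 0.10. HSPA5 (BiP, ENSG00000044574), the HSP70 of the endoplasmic reticulum, was at 263, 259.7, 187 and 177 FPKM, which is 261 ± 2.26 in wild type against 182 ± 6.99 in the knockdown (SD, n = 2). Its groups did not overlap, and the change was −0.52 with a standard error of 0.07 (limma adjusted p = 0.0569). HSPA9 (ENSG00000113013), the mitochondrial HSP70, stood at 153, 151, 115 and 113 FPKM, a change of −0.41 (standard error 0.07, limma adjusted p = 0.0632). HSPH1 (ENSG00000120694), an HSP110 that exchanges nucleotide on HSP70, stood at 94.5, 94.6, 71.7 and 72.0 FPKM. The libraries of each group agreed closely for this gene, and the change was −0.39 (limma adjusted p = 0.0687). HSPA4, another cytosolic HSP110, was at 84.9, 79.6, 65.5 and 67.3 FPKM, also without overlap, and missed the threshold (limma adjusted p = 0.108).

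The major cytosolic HSP70 genes differed less. HSPA8 was at 1017, 996, 829 and 950.2 FPKM, 1006 ± 15.0 against 889 ± 85.9 (SD, n = 2), a change of −0.18 with a standard error of 0.09 (limma adjusted p = 0.291), and its sign turned with quantile normalization. HSPA1A, the stress-inducible HSP70, was at 281, 281, 274 and 252 FPKM, and HSPA1B at 233, 233, 211 and 211 FPKM. Their changes were −0.09 and −0.14 and did not pass, and that of HSPA1A changed sign with equal FPKM sums. HSPA1A and HSPA1B are near-identical neighbours on chromosome 6, so the division of reads between them is uncertain. HSPA4L, an HSP110 relative, stood at 8.52, 9.13, 8.28 and 5.91 FPKM, lower without overlap and mostly through replicate 2. HSPA14, a ribosome-associated HSP70, and HSPA13, an HSP70-like ATPase of microsomes, overlapped between the groups, the latter at 24.2, 24.4, 26.7 and 23.9 FPKM. HSPA12A, a distant family member, was the only one higher without overlap in this family, at 1.80, 1.67, 1.98 and 2.38 FPKM, with a change of 0.22 that did not pass (limma adjusted p = 0.458).

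All 3 HSP90 genes were lower without overlap, and 1 passed at 0.10, where 25.2% and 4.91% of all genes tested were lower. Of all genes averaging at least 50 FPKM, 40.9% and 12.6% were. HSP90AB1 (ENSG00000096384), the constitutive cytosolic HSP90, stood at 961, 962, 672 and 599 FPKM, 962 ± 0.785 against 635 ± 51.9 (SD, n = 2). Its change was −0.60 with a standard error of 0.08 (limma adjusted p = 0.0569), and it did not pass 0.10 with quantile normalization, where its adjusted p was 0.125. HSP90AA1, the inducible cytosolic HSP90, stood at 799, 805, 561 and 677 FPKM, a change of −0.38 (limma adjusted p = 0.128). The order of the knockdown libraries was opposite for the pair: HSP90AB1 was lower in replicate 2 and HSP90AA1 in replicate 1. The ratio of HSP90AA1 to HSP90AB1 was therefore 0.831, 0.837, 0.834 and 1.13, outside the other libraries only in MYC knockdown replicate 2. HSP90B1 (GRP94), the HSP90 of the endoplasmic reticulum, stood at 584, 562, 504.1 and 467 FPKM, a change of −0.24 (limma adjusted p = 0.148). The family's median change was −0.38, and −0.14 with quantile normalization.

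HSPB1 was the one small heat shock gene with a substantial level. It encodes HSP27, an actin-regulating holdase. HSPB1 (ENSG00000106211, on the plus strand of chromosome 7 from 76302544 to 76304295 by GENCODE release 29, GRCh38) stood at 563, 561, 302 and 334 FPKM, 562 ± 1.78 against 318 ± 22.9 (SD, n = 2), which is 56.6% of wild type. Its change of −0.82, with a standard error of 0.08 (limma adjusted p = 0.0556), was the most negative among the members tested in the fit of all 4 libraries, and it lay between −0.89 and −0.75 when each library was left out. HSPB8, a partner of BAG3 in autophagy, stood at 0.64, 0.30, 1.51 and 0.52 FPKM and was not tested, and the other 5 small heat shock genes reached at most 0.13 FPKM. CRYAB, a small heat shock protein under another name, was listed at 0.05, 0.08, 0 and 0 FPKM.

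Of the 3 genes that only share the HSPB prefix, 2 were higher without overlap, where 33.4% of all genes tested were. At 0.10, 0 passed, where 4.91% of all genes were lower and 5.5% higher. HSPB11, a subunit of the intraflagellar transport machinery, stood at 77.7, 68.3, 91.0 and 86.5 FPKM, and HSPBAP1, which binds HSPB1, at 4.62, 4.02, 5.31 and 5.70 FPKM. These were the higher ones, by 0.28 and 0.29 (limma adjusted p = 0.163 and 0.245). HSPBP1, a nucleotide exchange factor of HSP70, overlapped between the groups, at 24.4, 20.0, 22.2 and 15.2 FPKM, a change of −0.25 (limma adjusted p = 0.503).

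The mitochondrial chaperonin was lower in both of its parts. HSPD1 (HSP60, ENSG00000144381) stood at 480.15, 469, 312 and 272 FPKM, 475 ± 7.96 against 292 ± 28.7 (SD, n = 2), a change of −0.70 with a standard error of 0.09 (limma adjusted p = 0.0566). HSPE1 (HSP10, ENSG00000115541) stood at 393, 358, 281 and 240.1 FPKM, 376 ± 25.3 against 261 ± 29.1 (SD, n = 2), a change of −0.53 with a standard error of 0.11 (limma adjusted p = 0.0837, and 0.103 with quantile normalization). Both knockdown libraries were below both wild-type libraries for the pair, and replicate 2 was the lower of the 2. Lower without overlap were 25.2% of all genes tested, and lower at an adjusted p under 0.10 were 4.91%. Of all genes averaging at least 50 FPKM, as both genes do, 40.9% and 12.6% were. The ratio of HSPE1 to HSPD1 was 0.820, 0.763, 0.901 and 0.884. The gene models of the pair overlap on opposite strands in GENCODE release 29, and the labels do not say whether counting used strand. HSPE1-MOB4, a readthrough that shares exons with HSPE1, stood at 3.06, 3.89, 8.39 and 3.01 FPKM, high in MYC knockdown replicate 1 alone.

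The 8 members counted as mitochondrial were assigned from general knowledge of their proteins, and the list may not be complete. Of these 8, 3 were lower without overlap (HSPD1, HSPE1 and HSPA9), or 37.5% against 25.2% of all genes, and 2 higher, or 25% against 33.4%. DNAJA3, the J-domain partner of HSPA9, was at 24.7, 24.1, 24.9 and 23.7 FPKM, and its groups overlapped. DNAJC19 and DNAJC15, J-domain proteins at the import channel, stood at 17.9, 16.96, 18.7 and 14.4 FPKM and at 15.2, 13.9, 19.6 and 17.6 FPKM. DNAJC15 was higher without overlap by 0.34 (limma adjusted p = 0.148). The pseudogene rows of DNAJC19 summed to as much as 18.1% of the FPKM of DNAJC19 itself. Among mitochondrial chaperones and proteases under other names, 2 of 9 were lower at an adjusted p under 0.10 and 0 higher, and 6 were lower without overlap, where 4.91%, 5.5% and 25.2% of all genes were. TRAP1, the mitochondrial HSP90, stood at 66.8, 74.1, 47.9 and 45.7 FPKM (limma adjusted p = 0.06), and CLPX, the unfoldase of a matrix protease, at 26.7, 31.7, 17.7 and 20.3 FPKM (limma adjusted p = 0.0886).

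The CCT chaperonin, a ring of 8 different subunits that folds actin and tubulin, was lower throughout. All 8 expressed subunits were lower without overlap, and 6 passed at an adjusted p under 0.10, where 25.2% and 4.91% of all genes tested were lower. Of all genes averaging at least 50 FPKM, as these subunits do, 40.9% and 12.6% were. The median change of the 8 subunits was −0.39, at −0.33 in MYC knockdown replicate 1 and −0.45 in replicate 2, and −0.30 with equal FPKM sums. CCT5 (ENSG00000150753) was the most abundant subunit, at 516, 519, 385 and 353 FPKM, 518 ± 2.65 against 369 ± 22.5 (SD, n = 2), a change of −0.49 with a standard error of 0.08 (limma adjusted p = 0.0608). TCP1 (CCT1, ENSG00000120438) stood at 343, 346, 241 and 254 FPKM, a change of −0.47 (limma adjusted p = 0.0572).

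Of the other 6 subunits, 4 passed at 0.10. CCT3 stood at 274, 273, 216 and 193 FPKM (limma adjusted p = 0.0796) and CCT4 at 427, 421, 338 and 306 FPKM (limma adjusted p = 0.0814). CCT8 stood at 179, 178, 145 and 128 FPKM (limma adjusted p = 0.0938), and CCT6A at 269, 267, 212 and 221 FPKM (limma adjusted p = 0.091). The changes of these 4 subunits lay between −0.42 and −0.31. With quantile normalization CCT4, CCT5, CCT6A and CCT8 did not pass 0.10, at adjusted p of 0.132, 0.1004, 0.105 and 0.108 (limma), and CCT6A did not with equal FPKM sums (limma adjusted p = 0.147). CCT7, at 373, 376, 322 and 298 FPKM, and CCT2, at 182, 176, 163 and 158 FPKM, did not pass (limma adjusted p = 0.118 and 0.238). CCT2 was the least different, at 89.5% of wild type against 71.3% for CCT5. The levels per length were not equal although the ring holds 1 of each: the highest subunit, CCT5, exceeded the lowest by 2.88 and 2.95 times in wild type and by 2.65 and 2.75 times in the knockdown. The order of the 4 most abundant subunits, CCT5, CCT4, CCT7 and TCP1, was the same in all 4 libraries. The neighbours CCT2 and CCT8 exchanged places between the wild-type libraries, and CCT3 and CCT6A did so between the knockdown libraries.

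**Figure D3:**
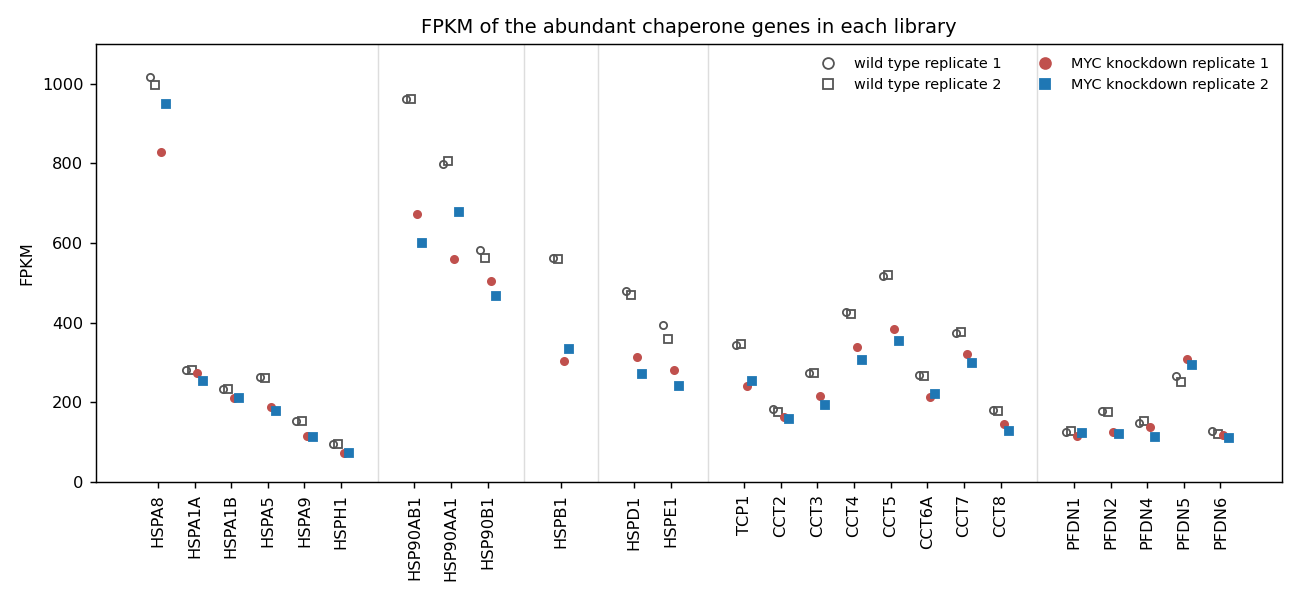
FPKM of abundant chaperone genes in each of the 4 libraries, grouped by family. Open grey symbols are wild type, and filled red and blue symbols are MYC knockdown. All 8 CCT subunits, the 3 HSP90 genes, HSPB1, HSPD1 and HSPE1 lie lower in both knockdown libraries, and PFDN5 lies higher.

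Prefoldin subunits did not move alike. PFDN2 (ENSG00000143256) stood at 177, 175, 126 and 121 FPKM, 176 ± 1.53 against 123 ± 3.42 (SD, n = 2), a change of −0.51 with a standard error of 0.07 (limma adjusted p = 0.0569). PFDN5 (ENSG00000123349), also known as MM-1 for its binding to MYC, stood at 266, 250.3, 308 and 293 FPKM, 258 ± 11.3 against 301 ± 10.6. Its groups did not overlap either, in the opposite direction, with a change of 0.22 that did not pass at 0.10 (limma adjusted p = 0.165). The ratio of PFDN5 to PFDN2 was 1.504, 1.43, 2.45 and 2.42. PFDN4 stood at 148, 152, 137 and 113 FPKM, PFDN6 at 128, 120.2, 119 and 109.9 FPKM and PFDN1 at 125, 127, 116 and 122 FPKM. All 3 were lower without overlap by 0.26, 0.12 and 0.09 and did not pass (limma adjusted p between 0.228 and 0.498), and PFDN1 changed sign with equal FPKM sums. VBP1, the prefoldin subunit whose symbol lies outside the rule, was at 112, 116, 102 and 112 FPKM, a change of −0.10. Of the 5 members, 4 were lower and 1 higher without overlap, where 25.2% and 33.4% of all genes tested were. At an adjusted p under 0.10, 1 was lower, where 4.91% were. Of all genes averaging at least 50 FPKM, as these members do, 40.9% were lower and 26.8% higher without overlap. At that level 12.6% were lower at 0.10. The median over the 5 members was −0.12, and −0.02 with equal FPKM sums.

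**Figure D4:**
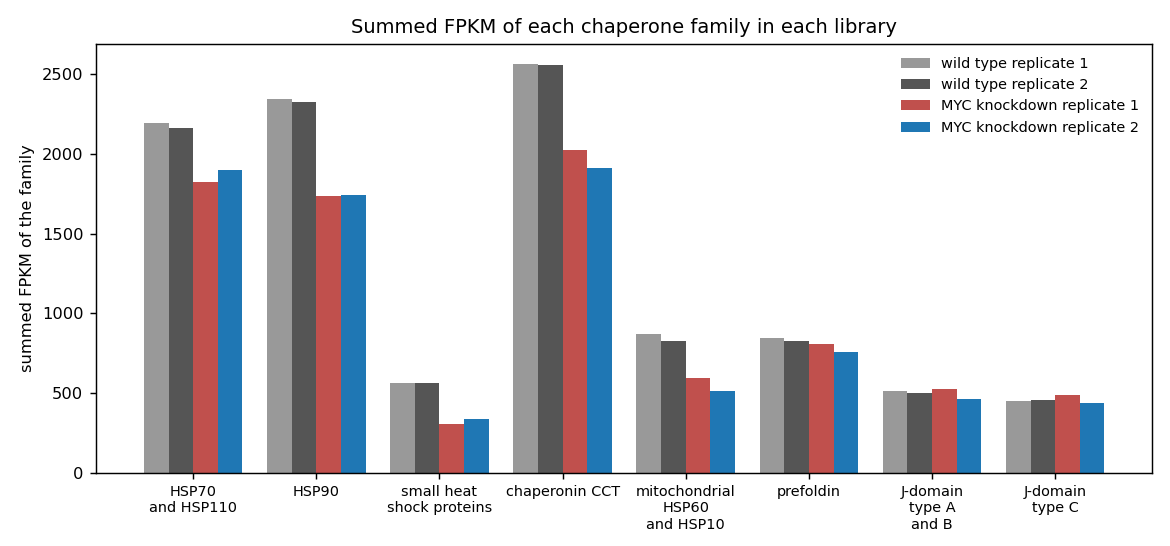
Summed FPKM of each family in each of the 4 libraries. The CCT subunits sum to 2563, 2557, 2025 and 1913 FPKM and the HSP90 genes to 2343, 2330, 1737 and 1743 FPKM, while the sums of both J-domain groups overlap between wild type and knockdown.

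J-domain genes were called about as often as genes in general. Of 36 tested, 7 were lower without overlap, or 19.4% against 25.2% of all genes, and 15 higher, or 41.7% against 33.4%. At an adjusted p under 0.10, 0 were lower, where 4.91% of all genes were, and 2 higher, or 5.56% against 5.5%. The median change was 0.14 for types A and B (13 genes) and 0.16 for type C (23 genes). In MYC knockdown replicates 1 and 2 those medians were 0.25 and −0.04 for types A and B and 0.18 and 0.07 for type C, so without replicate 1 the median of types A and B lay below 0. The summed FPKM of types A and B was 515, 498, 523 and 461, and that of type C 449, 454, 489 and 440. For comparison, the 30 tested HSP70, HSP110, HSP90, small heat shock, chaperonin and prefoldin genes had a median of −0.30, with 26 lower and 2 higher without overlap and 14 lower at an adjusted p under 0.10. Most of the 30 averaged at least 50 FPKM and most J-domain genes averaged less, so the groups also differed in level. Lower without overlap were 40.9% of all genes at or above 50 FPKM and 22.3% of those below it. Higher were 26.8% and 34.6%. At an adjusted p under 0.10, 12.6% and 3.47% were lower, and 6.35% and 5.35% higher. The difference between these groups of genes was not tested, since genes are not replicates.

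The members with the most positive changes were both type B J-domain genes. DNAJB2 (ENSG00000135924) stood at 14.2, 14.1, 23.6 and 27.2 FPKM, 14.1 ± 0.0566 against 25.4 ± 2.54 (SD, n = 2). Its change was 0.80 with a standard error of 0.11 (limma adjusted p = 0.0566), and the knockdown mean was 180% of wild type. DNAJB9 (ERdj4, ENSG00000128590), which is induced by ER stress and acts on BiP, stood at 6.55, 5.96, 9.82 and 9.73 FPKM, a change of 0.57 (limma adjusted p = 0.0748). The knockdown libraries lay close together for DNAJB9, and BiP itself was lower in both. The ratio of DNAJB9 to HSPA5 was 0.0249, 0.0230, 0.0526 and 0.0550.

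The J-domain partners of cytosolic HSP70 were split. DNAJB1 (HSP40), the main heat-inducible one, was at 55.9, 55.9, 76.96 and 67.6 FPKM, higher without overlap by 0.36 (limma adjusted p = 0.109), while HSPA8 was lower. DNAJB6, which prevents aggregation of polyglutamine proteins, was at 145, 139, 116 and 101 FPKM, lower without overlap by 0.38 on the log2 scale (limma adjusted p = 0.105). DNAJA1, a type A partner of HSP70, stood at 91.0, 88.1, 107 and 78.5 FPKM, so 1 knockdown library lay above wild type and 1 below. DNAJA2 was lower without overlap, at 53.8, 54.0, 47.8 and 43.0 FPKM (limma adjusted p = 0.180). DNAJA4 was at 5.47, 5.38, 7.08 and 4.01 FPKM and differed between the knockdown libraries by 0.69 on the log2 scale, with wild type between them. DNAJB4, DNAJB5, DNAJB12 and DNAJB14 had positive changes between 0.14 and 0.35, of which those of DNAJB12 and DNAJB14 were without overlap, and none of the 4 passed.

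Type C genes have proteins that share only the J domain and do varied work. Of 23, 10 were higher without overlap, or 43.5% against 33.4% of all genes, and 4 lower, or 17.4% against 25.2%. At an adjusted p under 0.10, 0 passed, where 4.91% of all genes were lower and 5.5% higher. The most abundant were DNAJC8, a splicing-associated protein, at 74.9, 77.2, 80.8 and 61.7 FPKM, and DNAJC7, a co-chaperone with TPR repeats, at 62.6, 65.2, 63.5 and 57.2 FPKM. Both overlapped between the groups. The most positive change was 0.52 for DNAJC4, at 11.5, 10.8, 19.2 and 13.9 FPKM (limma adjusted p = 0.158), with replicate 1 well above replicate 2. The most negative was −0.75 for DNAJC18, at 4.56, 3.67, 2.73 and 1.45 FPKM (limma adjusted p = 0.163). Above a mean of 5 FPKM the most negative was DNAJC17, a splicing-associated protein, at 12.9, 17.1, 12.8 and 9.12 FPKM, a change of −0.43 whose lowest wild-type and highest knockdown values lay 0.09 FPKM apart. DNAJC2 (ribosome-associated MPP11) and DNAJC9 (a histone chaperone) were lower without overlap by 0.18 and 0.14 and did not pass. DNAJC5, the cysteine string protein of secretory vesicles, was at 28.3, 28.4, 30.8 and 32.7 FPKM, and DNAJC13, an endosomal protein, at 12.6, 13.8, 14.9 and 14.9 FPKM. Both were higher without overlap and did not pass. DNAJC6 (auxilin), which uncoats clathrin vesicles, was higher without overlap by 0.21, and DNAJC24, of diphthamide synthesis, by 0.32. DNAJC11, DNAJC14, DNAJC19, DNAJC21, DNAJC25, DNAJC27 and DNAJC30 overlapped between the groups.

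Members that act in the endoplasmic reticulum included lower and higher genes. The 12 counted here were assigned from general knowledge of their proteins, and the list may not be complete. Of these 12, 3 were lower without overlap (HSPA5, HSP90B1 and DNAJB11), or 25% against 25.2% of all genes tested, and 7 were higher (DNAJB9, DNAJB12, DNAJB14, DNAJC1, DNAJC3, DNAJC10 and DNAJC16), or 58.3% against 33.4%. DNAJB11 (ERdj3), a secreted BiP partner, stood at 84.7, 77.5, 67.1 and 68.7 FPKM (limma adjusted p = 0.155). DNAJC3 (p58IPK), an ER co-chaperone, stood at 18.5, 17.8, 21.0 and 23.6 FPKM, and DNAJC10 (ERdj5), a disulfide reductase, at 11.8, 12.5, 14.3 and 16.1 FPKM. These changes, 0.28 and 0.29, did not pass (limma adjusted p = 0.180 and 0.182). In a list of 19 ER stress genes, 6 of them members, 4 were lower at an adjusted p under 0.10 and 1 higher (4.91% and 5.5% of all genes), and 13 were lower and 4 higher without overlap (25.2% and 33.4% of all genes). The lower ones were HSPA5, CALR, PDIA6 and MANF, a lectin chaperone, a disulfide isomerase and a secreted ER factor beside BiP, and the higher one was DNAJB9. MANF stood at 81.0, 82.0, 54.8 and 52.3 FPKM.

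The partners of these chaperones were read from further lists, whose counts stand against 4.91% of all genes lower and 5.5% higher at 0.10, and 25.2% lower and 33.4% higher without overlap. Of 19 HSP90 co-chaperones, 1 was lower at an adjusted p under 0.10 and 0 higher, and 12 were lower and 1 higher without overlap. FKBP5, an immunophilin of steroid receptor complexes, stood at 4.45, 4.63, 1.86 and 2.09 FPKM, a change of −0.90 (limma adjusted p = 0.06), and STIP1 (HOP), which bridges HSP70 and HSP90, at 206, 197, 176 and 136 FPKM, a change of −0.38 that did not pass. Of 13 HSP70 partners and exchange factors 0 passed at 0.10, with 5 lower and 3 higher without overlap, and of 13 chaperonin helpers and tubulin cofactors 0 passed, with 3 lower and 2 higher.

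Heat-inducible genes under HSF1 were read from a list of 19, 12 of them members. At an adjusted p under 0.10, 5 were lower and 0 higher, against 4.91% and 5.5% of all genes, and 14 were lower without overlap, against 25.2%. The 5 were HSPB1, HSPD1, HSPE1, HSP90AB1 and HSPH1, all members, and among the 12 members DNAJB1 was higher without overlap. HSF1, the factor itself, stood at 40.3, 47.2, 47.3 and 34.2 FPKM and HSF2 at 16.8, 17.5, 17.3 and 15.3 FPKM, and both overlapped between the groups. Of the 5 heat shock factors and regulators, 1 passed at 0.10: HSF4, a factor known from the lens, at 1.85, 3.48, 6.34 and 8.79 FPKM, a change of 1.25 (limma adjusted p = 0.0925).

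The knockdown libraries differed from each other in the members too. Of 70 tested members, 51 were higher in MYC knockdown replicate 1 than in replicate 2, with a median difference of 0.12 on the log2 scale, against 0.07 over all genes tested. The exceptions included HSP90AA1, HSPA8, HSPB1 and TCP1, which were higher in replicate 2 by 0.27, 0.20, 0.15 and 0.07. Among members averaging 5 FPKM or more, 2 differed by over 0.5, DNAJA4 by 0.69 and HSPBP1 by 0.52, both higher in replicate 1.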

How the data were processed

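RNA of 4 NUGC3 libraries was measured. The authors deposited values taken here as FPKM, 1 column per library, rounded to 2 decimals; STAR and RSEM are named, per the submitters' processing notes, with versions, genome build, annotation and strandedness not given in the sources used here. FPKM was read from the column sums, which differ between libraries. No read counts come with the table, so depth is unknown and no counting interval is given.

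Of 53777 Ensembl rows, the 12953 reaching 1 FPKM in 2 or more libraries were fitted together with limma 3.58.1 in R 4.3.3 (eBayes, trend on) after a log2(FPKM + 1) step, as knockdown minus wild type with no covariate, and adjusted by Benjamini-Hochberg at 0.05 and 0.10. The script was tested on simulated data. Members, lists, thresholds and alternatives were chosen with earlier results of these data known. The rule for named genes took members past 0.10, all CCT, prefoldin, HSP90, HSPD1 and HSPE1 genes, in other families the largest change each way above a mean of 5 FPKM and the 2 most abundant members, members whose knockdown libraries differed by over 0.5, list genes past 0.10, and MYC. Other genes given with values were added after the values were seen. Alternatives were other filters, pseudocount and scalings, the replicate block and each library left out. Protein sequences were not used here, and some list genes are not reported here.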

Additional observations from a re-analysis of the deposited data

How the results depend on the processing

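The count of members past an adjusted p of 0.05 was 0 as reported, 7 with a mean of at least 5 FPKM, 8 with protein-coding rows alone, 6 with median-of-ratios scaling, and 0 to 30 when each library was left out. Members lower at 0.10 (14) numbered 0 with no filter on low values, 9 with quantile normalization, 8 with the replicate number as a block, and 0 to 35 with a library left out. Members higher at 0.10 (2) numbered 0 with no filter, 1 with the replicate block, 7 with equal column sums, and 0 to 15 with a library left out. Members higher without overlap (19) numbered 21 to 32 with a library left out, a count that leaving out a library cannot lower. The correlation of same-numbered deviations was −0.0059, so replicate numbers showed no pairing.

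The median of all members was 0.0033 with equal column sums. That of HSP70 and HSP110 lay between −0.284 and −0.144 with a library left out, that of J-domain types A and B between −0.040 and 0.248, that of type C between 0.066 and 0.178, and that of prefoldin between −0.174 and −0.0989. Prefoldin was at −0.0798 with quantile normalization, −0.161 with median-of-ratios scaling and −0.0245 with equal sums. HSP90 was at −0.138 with quantile normalization and CCT at −0.295 with equal sums. The small heat shock median was −0.034 with no filter, where silent genes enter. The median of HSPD1 and HSPE1 kept its sign under all 12 alternatives; genes that met the rule by name only were not summarised this way. The cause of these shifts was not tested. With 2 libraries a group and no counts, precision rests on the replicate spread alone.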
